A study of Mus musculus with 9 samples.

Results

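The genes described here are 10 members of the TGF-beta and BMP signalling pathway, taken as a list of symbols: Bmp6, Bmpr1a, Acvr1, Tgfbr1, Bmpr2, Tgfbr2, Tgfbr3, Smad4, Smad7 and Id1. All 10 were present among the 13081 genes of the expression table, and all 10 passed the filter on low values, which left 12667 genes for testing. Their transcripts were measured by RNA sequencing in whole kidneys of wild-type mice, 4 aged 3 months (young) and 5 aged 16 months (old), with 1 library for each mouse. The labels name no mutation and no treatment besides age and do not give the sex, and the study describes the mice as C57BL/6. The comparison of old with young kidneys asks how these transcripts differ with age.

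Ligands of the TGF-beta and BMP family bind a pair of type II and a pair of type I receptors at the cell surface, both of which are kinases. The type I receptor then phosphorylates receptor-regulated Smads, Smad2 and Smad3 in the TGF-beta and activin branch and Smad1, Smad5 and Smad9 in the BMP branch, which enter the nucleus together with the common partner Smad4. Smad6 and Smad7 are inhibitory, and the Id genes are classical BMP targets. In the kidney, TGF-beta signalling is best known from fibrosis, whereas BMP ligands act in nephron development and are often described as opposing it.

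The libraries held 4486406 to 6355095 reads over the 13081 genes of the table, 5093029 to 6355095 in young and 4486406 to 5794960 in old kidneys. The values are normalised counts, that is, gene-wise reads over a size factor of each library, and 1 read was worth about 1 normalised count (the floor of 3 reads was 2.46 to 3.54 normalised counts). Reads came from the ends of transcripts, so the values do not scale with transcript length in a simple way and levels are compared between ages, not between genes. The titles of the young and the old libraries carry different prefixes, so age cannot be told apart from any difference in preparation between the prefixes. Mitochondrial genes took 27.0% to 29.7% of the reads in young and 35.8% to 38.1% in old libraries. Markers of the proximal tubule, the main cell type of the kidney cortex, were abundant at both ages, with a summed level of 182455 to 214151 normalised counts in young and 123932 to 175027 in old kidneys. Most of this sum was Kap, at a mean of 159722 and 99735. Of the 8 markers 3 were called higher and 4 lower, where 29.2% of all genes were called higher and 30.5% lower.

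The RefSeq promoter table held 6 of the 10 genes. Promoter sequences are shown for the 3 listed genes with the largest called changes, as the sequence before their RefSeq starts. They are RefSeq sequences of the GRCm38.p6 build, cover the 250 bases before the start and are written 5′ to 3′ on the strand of the gene. Bmpr1a lies at chr14:34502547-34502796 on the minus strand, Acvr1 at chr2:58566829-58567078 on the minus strand and Bmp6 at chr13:38345466-38345715 on the plus strand. The RefSeq starts used here differ from the outer gene ends of the GENCODE annotation used for gene positions, and all 3 windows lie within the annotated genes. Capitals mark matches to GGCGCC, a motif described for BMP-activated Smads, and to GTCTG, which contains the core of the Smad binding element and reads CAGAC on the other strand.
Bmpr1a: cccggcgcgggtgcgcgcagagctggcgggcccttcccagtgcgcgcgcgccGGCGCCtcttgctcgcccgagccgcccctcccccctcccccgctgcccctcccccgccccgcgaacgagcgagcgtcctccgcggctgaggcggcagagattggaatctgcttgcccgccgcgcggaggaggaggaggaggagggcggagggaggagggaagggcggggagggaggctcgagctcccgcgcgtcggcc
Acvr1: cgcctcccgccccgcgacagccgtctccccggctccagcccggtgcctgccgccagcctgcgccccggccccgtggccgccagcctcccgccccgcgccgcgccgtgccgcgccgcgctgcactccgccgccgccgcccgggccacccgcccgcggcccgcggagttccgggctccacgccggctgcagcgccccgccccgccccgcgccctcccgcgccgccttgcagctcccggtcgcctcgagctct
Bmp6: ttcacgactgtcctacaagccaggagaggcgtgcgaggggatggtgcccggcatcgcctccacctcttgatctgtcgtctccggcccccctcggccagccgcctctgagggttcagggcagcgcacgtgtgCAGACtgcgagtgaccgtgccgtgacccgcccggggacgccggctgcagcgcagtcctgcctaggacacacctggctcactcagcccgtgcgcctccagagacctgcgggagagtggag

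The Bmpr1a window held 1 GGCGCC, which begins 198 bases before the start, and the Bmp6 window held 1 CAGAC, which begins 119 bases before it. The Acvr1 window held neither. Of 32851 promoter windows of the same length, 9.59% held GGCGCC and 42.2% held GTCTG on either strand. The palindrome GTCTAGAC, which shares the GTCT core with GTCTG, was in 0.167% of all windows and in none of the 3 shown. These matches describe the letters of the windows, and reads from transcript ends carry no measure of promoter use.

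Of the 10 genes, 6 were called at an adjusted p-value under 0.05 by limma. In old kidneys 2 were higher (Bmpr1a and Smad7) and 4 were lower (Bmp6, Acvr1, Tgfbr2 and Tgfbr3). In whole kidney, fewer cells of a type cannot be told apart from less RNA per cell. The share is close to that of all genes tested, of which 59.7% were called (29.2% higher, 30.5% lower). On the recovered reads, edgeR and DESeq2 each called 6 of the 10, against 60.4% and 59.5% of all genes. When a 1.5-fold change was required too, 5 of the 10 were called, 1 higher and 4 lower, against 45.1% of all genes (21.6% higher, 23.6% lower). The ages did not overlap in 5 of the 10, against 49.0% of all genes. The median log2 fold change was -0.04 in the 10 genes and 0.00 in all genes, and the median size of the change was 0.50 and 0.56. The genes are therefore described one by one, in the order of signalling from ligand to target.

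**Figure D1:**
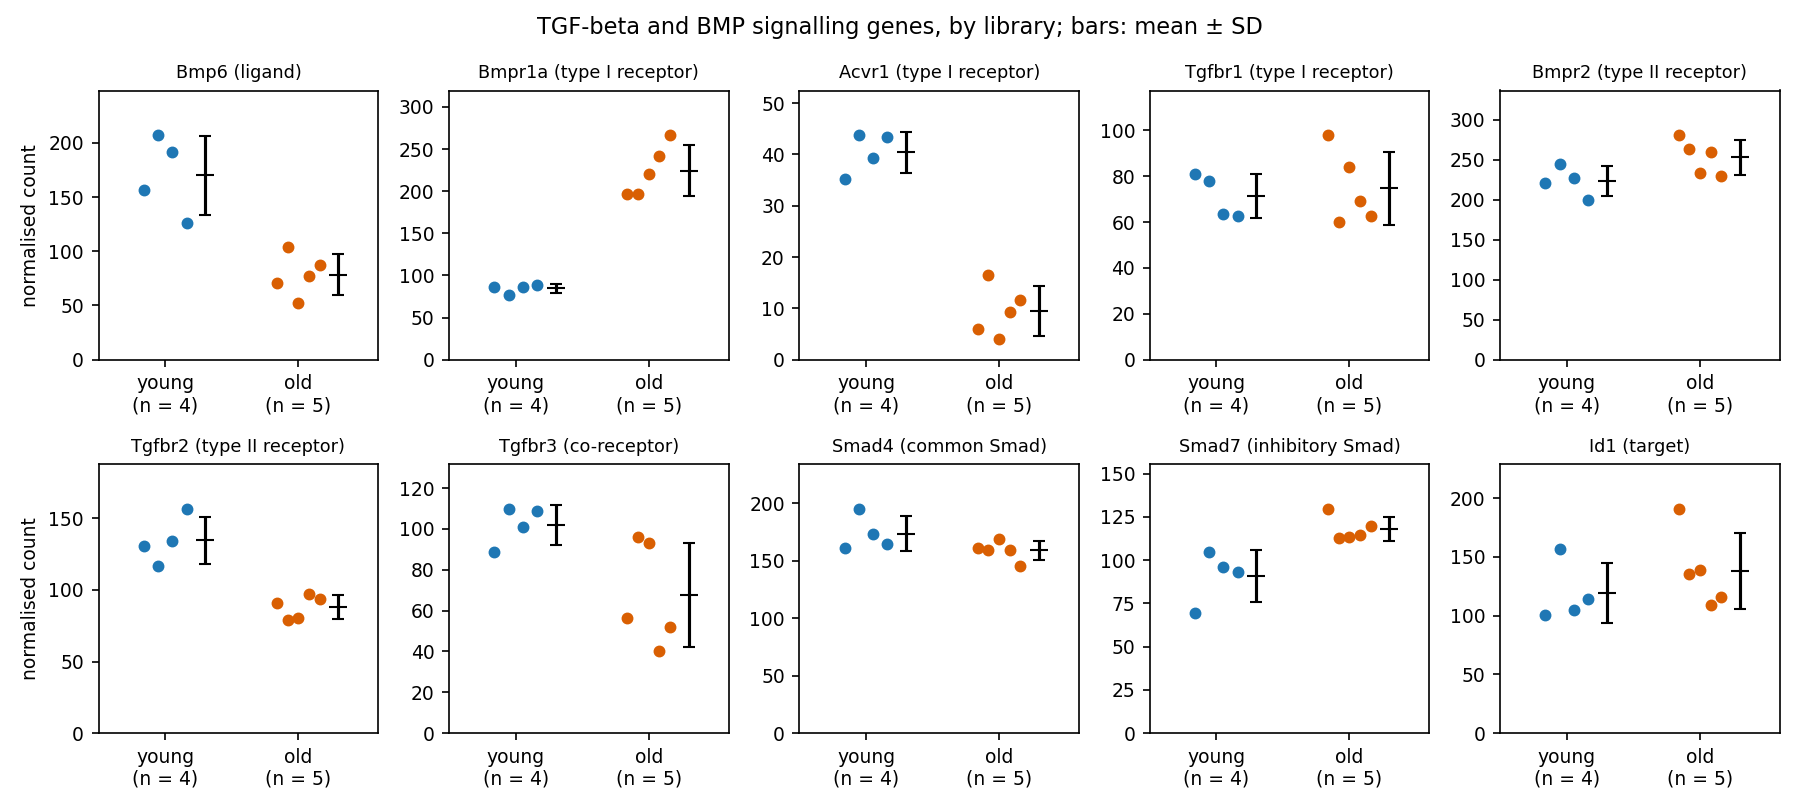
Normalised counts of the 10 genes in each library (vertical axes from 0, 1 point per mouse), for 4 young and 5 old kidneys, with the mean and SD beside the points. Every old point lies above every young point for Bmpr1a and Smad7, and below for Bmp6, Acvr1 and Tgfbr2, while Tgfbr3 splits within the old group.

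Bmp6, the only ligand among the 10, encodes a secreted BMP best known for inducing hepcidin in the liver. It stood at 156, 207, 191 and 126 normalised counts in the young libraries and at 70.7, 104, 52.7, 77.4 and 87.0 in the old ones. All old libraries lay below all young ones, with old replicate 2 the closest. The mean fell from 170.1 ± 36.3 (SD, n = 4) to 78.4 ± 19.0 (SD, n = 5), and the log2 fold change was -1.12 (standard error 0.19, adjusted p 4.34e-05 by limma). Bmp6 lies on chromosome 13 (38345107 to 38500302, GRCm38, GENCODE vM21), and its end lies opposite the antisense gene Txndc5, though the counting used strand.

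Bmpr1a showed the largest rise of the 10. It encodes a type I BMP receptor (ALK3), on chromosome 14 (34410734 to 34503341). Its values were 86.8, 76.8, 86.3 and 88.7 normalised counts in young and 197, 197, 220.1, 242 and 266 in old kidneys. All old libraries lay well above all young ones. The mean rose from 84.6 ± 5.36 (SD, n = 4) to 224 ± 29.9 (SD, n = 5), a 2.62-fold change (log2 1.39, standard error 0.13, adjusted p 3.63e-08 by limma). Of all genes tested, 87.8% changed by less.

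Acvr1, a second type I receptor for BMP ligands (ALK2), moved the opposite way. It lies on chromosome 2 (58388644 to 58567157). Its values were 35.2, 43.7, 39.2 and 43.5 normalised counts in young and 5.89, 16.4, 4.06, 9.33 and 11.7 in old kidneys. All old libraries were below all young ones, and the lowest rested on 4 reads. The mean fell from 40.4 ± 4.03 (SD, n = 4) to 9.47 ± 4.88 (SD, n = 5), and the log2 fold change was -2.11 (standard error 0.33, adjusted p 2.48e-05 by limma). The size of the fall moved with the pseudocount, from -2.24 with 0.1 to -1.71 with 5. Of all genes tested, 95.9% changed by less.

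Tgfbr1, the type I receptor for TGF-beta (ALK5, chromosome 4, 47353222 to 47414931), was not called. It ranged from 62.5 to 81.1 normalised counts in young and from 60.2 to 97.8 in old kidneys, so the ages overlapped throughout. By limma the log2 fold change was 0.05 (95% interval -0.31 to 0.42, adjusted p 0.808). The direction of so small a difference was not stable, being -0.01 without young replicate 4, -0.05 without old replicate 1 and -0.19 with a trend on transcript length removed.

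Bmpr2, the type II receptor for BMPs (chromosome 1, 59763400 to 59879014), was not called, at 200.1 to 245 normalised counts in young and 229 to 281 in old kidneys (log2 fold change 0.18, 95% interval -0.05 to 0.41, adjusted p 0.168 by limma). It has the longest annotated transcript of the 10 (12899 bases). It also overlaps Gm38125 on the same strand, and whether this affects its count was not tested. With the length trend removed from each library it was called lower (-0.45, adjusted p 0.00327), and with mitochondrial genes left out before scaling it was called higher (0.32, adjusted p 0.0155), with a range of adjusted p-values over its alternatives of 0.00327 to 0.381. The direction of Bmpr2 therefore depends on the processing.

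Tgfbr2, the type II receptor that binds TGF-beta itself, lies on chromosome 9 (116084293 to 116175360). It stood at 131, 117, 134 and 157 normalised counts in young and at 90.8, 78.8, 80.1, 97.0 and 93.4 in old kidneys. The groups did not overlap. The mean fell from 135 ± 16.5 (SD, n = 4) to 88.0 ± 8.14 (SD, n = 5), and the log2 fold change was -0.60 (standard error 0.14, adjusted p 0.000932 by limma). The fall was larger, -1.02, with the length trend removed, and smaller, -0.46 and under 1.5-fold, with mitochondrial genes left out before scaling.

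Tgfbr3 encodes betaglycan, the co-receptor that presents TGF-beta ligands to Tgfbr2 (chromosome 5, 107106570 to 107289629). It stood at 88.4, 109.8, 101 and 109 normalised counts in young and at 56.6, 96.3, 93.3, 40.1 and 52.0 in old kidneys. Old replicates 2 and 3 lay within the young range, and the other 3 old libraries were below every young one. By limma the log2 fold change was -0.66 (standard error 0.22, adjusted p 0.0144). The call was kept without each library in turn (adjusted p 0.00275 to 0.0424) but not with mitochondrial genes left out before scaling (-0.52, adjusted p 0.0594, range over its alternatives 0.00157 to 0.0594). Old replicates 2 and 3 also had the highest summed levels of fibroblast and mural markers among the old libraries (1494 and 1972 normalised counts against 1178 to 1401 in the other 3). They were highest for collecting duct markers too (1406 and 3334 against 1150 to 1165), where young libraries held 1984 to 2574. They were the lowest old libraries for macrophage markers (1373 and 1496 against 1675 to 1929) and podocyte markers (751 and 736 against 809 to 870). The part of these cells in the Tgfbr3 values was not tested. Tgfbr3 overlaps Gm43422, Gm43423 and Gm42900 on the same strand, and whether this affects its count was not tested.

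Downstream of the receptors, Smad4, the partner shared by both branches (chromosome 18, 73639009 to 73703780), was not called. It ranged from 161 to 195 normalised counts in young and from 145 to 169 in old kidneys (log2 fold change -0.12, 95% interval -0.36 to 0.12, adjusted p 0.366 by limma). Without young replicate 2 the Smad4 value was -0.07. With mitochondrial genes left out before scaling, it was 0.02, while the median of all genes shifted from 0.00 to 0.13. Smad7, an inhibitory Smad induced by TGF-beta as a brake on its own receptors (chromosome 18, 75367529 to 75395935), stood at 69.6, 105, 96.1 and 93.2 normalised counts in young and at 129.7, 113, 114, 115 and 119.9 in old kidneys. The groups did not overlap, but the gap between old replicate 2 and young replicate 2 was narrow. By limma the log2 fold change was 0.39 (standard error 0.14, adjusted p 0.0258). Smad7 lost its call without young replicate 1 (0.27, adjusted p 0.129), without old replicate 1 (0.35, 0.0544), with counts scaled to the table total (0.33, 0.0624) and with the length trend removed (0.33, 0.0513), with a range of adjusted p-values over its alternatives of 0.00404 to 0.129.

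Id1, which encodes an inhibitor of helix-loop-helix transcription factors and is a direct BMP target, is a short gene on chromosome 2 (152736251 to 152737410). Its values were 101, 156, 105 and 114 normalised counts in young and 191, 136, 139, 109 and 116 in old kidneys, so the ages overlapped. By limma the log2 fold change was 0.21 (95% interval -0.15 to 0.56, adjusted p 0.305). It was 0.08 without old replicate 1 and 0.34 without young replicate 2. Its longest transcript, of 1160 bases, is the shortest of the 10, and with the length trend removed Id1 was called higher (0.58, adjusted p 0.00634, range over its alternatives 0.00634 to 0.674). In the last 500 bases of the longest transcript, 0% of the 50-base sequences of each of the 10 genes were shared with a transcript of another gene.

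**Figure D2:**
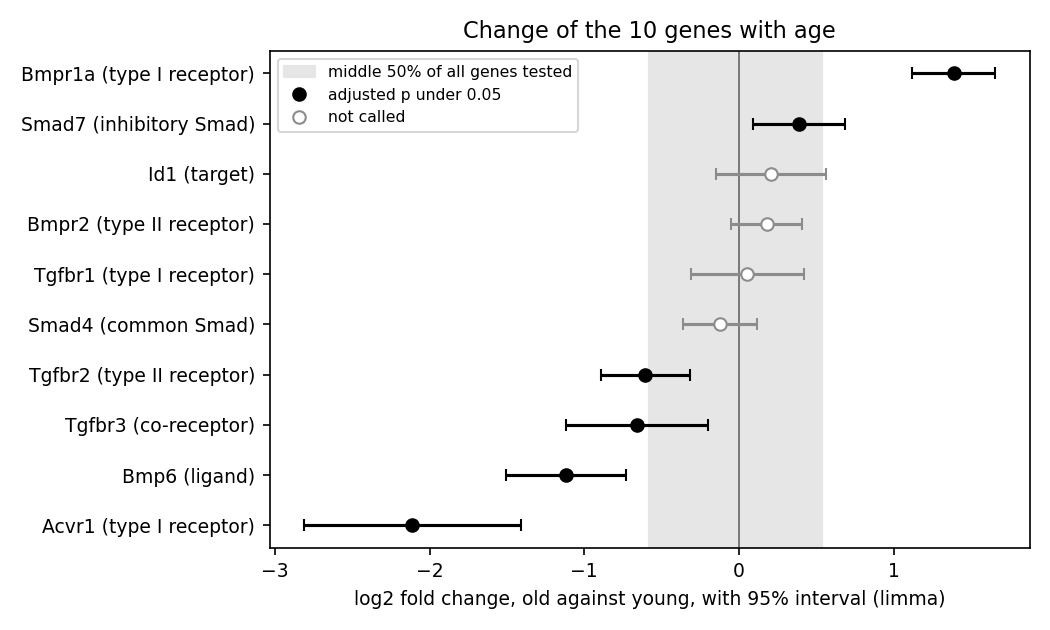
Log2 fold change of the 10 genes, old against young, with 95% intervals from limma; filled points were called, open points were not, and the grey band holds the middle 50% of all genes tested. Bmpr1a and Acvr1, both type I receptors, lie at opposite ends, at 1.39 and -2.11.

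Pairs of genes were then compared within each library, a measure that depends little on the scaling of the library. Each value is the difference between 2 genes in log2(normalised count + 1), and 6 pairs were tested by a two-sided exact permutation test over the 9 libraries with adjustment over the 6 pairs. Since counts are not scaled by length, the change of a pair with age is read and not the level of its difference. The smallest p-value that the 126 splits can give is 0.00794. The pairs were chosen with earlier results known, and 4 of the 6 contain Bmpr1a, whose own rise enters each of them, so nothing is read from how many pairs were called. The pair with the largest shift was Acvr1 against Bmpr1a, both type I receptors used by BMP ligands. Each of these 2 genes alone separated the ages, in opposite directions, so their difference had to separate them too. The p-value of this pair therefore adds nothing to the calls of the 2 genes. The difference was -1.05 ± 0.20 (SD, n = 4) in young and -4.55 ± 0.71 (SD, n = 5) in old kidneys, a change of -3.50 (adjusted p 0.0119, exact permutation test). It was -1.28, -0.80, -1.12 and -1.01 in the young libraries and -4.84, -3.51, -5.45, -4.55 and -4.40 in the old ones.

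The balance of Bmpr1a against its type II partner Bmpr2 rose by 1.21 (adjusted p 0.0119, exact permutation test), from -1.39 ± 0.21 to -0.18 ± 0.29 (SD, n = 4 and 5). Tgfbr1 against Bmpr1a, which sets the TGF-beta type I receptor beside that for BMPs, fell by 1.33 (adjusted p 0.0119, exact permutation test), from -0.25 ± 0.25 to -1.59 ± 0.41. Smad7 against Smad4 rose by 0.51 (adjusted p 0.0119, exact permutation test), from -0.94 ± 0.18 to -0.43 ± 0.13. Tgfbr1 against Tgfbr2 rose by 0.66 (adjusted p 0.0159, exact permutation test), from -0.91 ± 0.34 to -0.25 ± 0.32. The ages were nearly touching in that pair, with the highest young value at -0.58 and the lowest old value at -0.57, and the call was lost with reads thinned to the smallest table total (0.62, 0.0714) and without young replicate 4 (0.52, 0.0536). Over its alternatives the exact permutation test gave adjusted p-values of 0.00952 to 0.0714.

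Id1 against Bmpr1a fell by 1.18 (adjusted p 0.0159, exact permutation test), from 0.47 ± 0.37 in young to -0.71 ± 0.47 in old kidneys. The change was -0.55 with the length trend removed and was then not called (adjusted p 0.111, range 0.0159 to 0.111 over the alternatives of the exact permutation test).

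**Figure D3:**
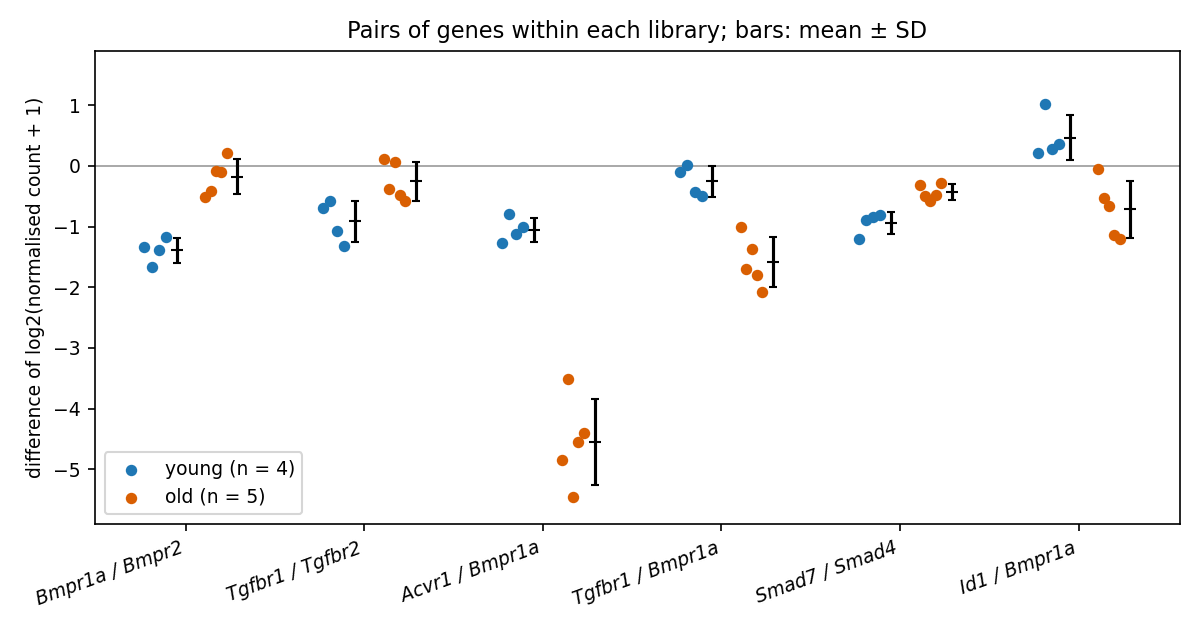
Difference in log2(normalised count + 1) between the genes of each of 6 pairs in each library, young and old, with mean and SD. Acvr1 against Bmpr1a moved furthest, from -1.05 to -4.55 on average, and the ages of Tgfbr1 against Tgfbr2 come closest to each other.

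The rest of the pathway was described from a list of 99 genes, of which 77 were in the table and 76 were tested. Bmp8a was in the table below the filter, and the genes not in the table, among them Nog and Grem1, were not analysed here. Of the 76 tested, 41 were called, 21 higher and 20 lower in old kidneys, 53.9% against the 59.7% of all genes, with a median log2 fold change of 0.03. In 35 of the 76 the ages did not overlap, where 49.0% of all genes did not. The median size of the change was 0.50, against 0.56 in all genes. With mitochondrial genes left out before scaling, the split was 29 higher and 15 lower, and all genes shifted the same way, to 4472 higher and 3173 lower of 12633. The 10 listed genes then had 3 higher and 3 lower, so the balance of directions depends on the scaling. Each pathway gene named as risen or fallen in the paragraphs on roles that follow was called in the same direction in every alternative in which it was tested, except Id2. Bmp7 was not followed through the alternatives and is left out of this statement. With the length trend removed, the rises of Ep300 (0.65), Usp15 (0.51), Smad2 (0.65), Smad5 (0.34) and Thbs1 (0.39) were smaller by more than 1.5 times.

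Of 9 genes tested in the ligand list, 5 were called, 3 higher and 2 lower (55.6%, against 59.7% of all genes). The list counts Bmp1, which encodes a metalloprotease and not a ligand of this family, and which was not called (0.15). Bmp4, a BMP ligand of nephron development, fell from 745 ± 23.3 (SD, n = 4) to 205 ± 53.2 normalised counts (SD, n = 5), a log2 fold change of -1.89 (adjusted p 2.38e-09 by limma). The 4 young libraries lay between 722 and 776 and the 5 old ones between 150.1 and 293. The other gene of this list called lower was Bmp7 (log2 fold change -0.50, adjusted p 0.00716 by limma), without overlap between the ages. Bmp6, described above and not part of this list, also fell. The TGF-beta ligands Tgfb1 (log2 fold change 1.70) and Tgfb2 (1.45) rose, from 18.4 ± 7.23 to 61.3 ± 22.7 and from 20.8 ± 5.67 to 59.5 ± 20.8 normalised counts. The stress-induced family member Gdf15 rose by 0.91, with overlap between old replicate 2 (126) and young replicate 3 (128).

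Of 10 other receptor and co-receptor genes, 5 were called, 2 higher and 3 lower (50%, against 59.7% of all genes). Acvr1b, the activin type I receptor ALK4, fell from 100.2 ± 12.1 to 24.1 ± 11.4 normalised counts (log2 -2.12, adjusted p 1.82e-06 by limma), a fall of about the same size as that of Acvr1. Bambi, a pseudoreceptor that lacks the kinase and dampens signalling, had 25 to 32 reads in each young library and 0 to 3 in each old one. Its ratio of young to old was 15.2, with a 95% exact interval of 7.48 to 36.2 for counting error only. Acvrl1, the endothelial type I receptor ALK1, rose from 37.7 ± 7.25 to 84.3 ± 10.95 (log2 1.15), and the activin type II receptor Acvr2b rose by 0.74.

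Of 4 measured receptor-regulated Smads, 3 were called higher, where 29.2% of all genes were called higher and 59.7% in either direction. With so few genes, nothing is read from this count. Smad2 (log2 fold change 1.06, adjusted p 8.83e-05 by limma) and Smad3 (0.52, 0.00246) of the TGF-beta branch and Smad5 (0.65, 0.000224) of the BMP branch rose, without overlap between ages. Smad1 was not called (0.31, adjusted p 0.128, range over its alternatives 0.0295 to 0.27), except with mitochondrial genes left out before scaling (0.45, 0.0295). The inhibitory Smad6, which mainly acts on BMP receptors, fell from 58.1, 51.5, 58.8 and 57.9 normalised counts in young to 11.8, 26.3, 15.2, 12.1 and 13.8 in old kidneys. Its log2 fold change was -1.83, whereas that of the other inhibitory gene Smad7 was 0.39.

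Of 14 extracellular regulators, 7 were called, 2 higher and 5 lower (50%, against 59.7% of all genes). Sostdc1, a secreted BMP antagonist of the distal nephron, rose from 520.4 ± 75.3 to 1100 ± 125 normalised counts (log2 1.08, adjusted p 1.57e-07 by limma). Beside it, 2 of 3 distal convoluted tubule markers were higher, the salt cotransporter gene Slc12a3 (log2 fold change 1.04) and Trpm6 (1.8). Pvalb (-0.44) was lower. Of all genes, 29.2% were called higher and 30.5% lower. The summed level of the 3 markers was 2019 to 2722 normalised counts in young and 3977 to 4850 in old libraries. Most of this sum was Slc12a3, at a mean of 2106 in young and 4295 in old kidneys. Of 3 thick ascending limb markers 1 was higher, with summed levels of 7132 to 7832 and 8210 to 11551, and the part of these segments in the Sostdc1 values was not tested. Thbs1, which can activate latent TGF-beta, rose by 0.64. Fst, the activin-binding follistatin, fell by 3.15 on the log2 scale to a mean of 5.33 normalised counts, with 1 old library at 0 reads. The size of its fall moved with the pseudocount, from -4.00 with 0.1 to -2.23 with 5. The latent TGF-beta binding protein gene Ltbp4 fell by 0.74.

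Of 26 intracellular regulators, 12 were called, 8 higher and 4 lower (46.2%, against 59.7% of all genes). The coactivator gene Ep300 rose from 195 ± 20.3 to 434 ± 45.7 normalised counts (log2 1.15, adjusted p 8.4e-08 by limma), and the deubiquitinase gene Usp15, which acts on this pathway, rose by 1.09. Tgif1, a corepressor of Smad2 and Smad3, fell from 157 ± 17.5 to 27.0 ± 12.4 (log2 -2.61). Tollip, an adaptor of endosomal sorting, fell from 199.7 ± 15.1 to 29.2 ± 8.28 (log2 -2.77).

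Among 12 target genes, 8 were called, 3 higher and 5 lower (66.7%, against 59.7% of all genes). Id3 fell from 520 ± 96.8 (SD, n = 4) to 128 ± 47.1 normalised counts (SD, n = 5), a log2 fold change of -2.07 (adjusted p 8.09e-08 by limma), Id4 rose by 0.61 with overlap between the ages and Id1 was not called. Id2, named after its values were seen, rose from 3777 ± 861 (SD, n = 4) to 5317 ± 1110.2 normalised counts (SD, n = 5), a log2 fold change of 0.50 with overlap between the ages (adjusted p 0.00886 by limma). The rise of Id2 was 0.75 with the length trend removed. Without young replicate 4 Id2 was not called (0.35, adjusted p 0.0508, range over its alternatives 0.000325 to 0.0508). Ccn2, a matrix-associated growth factor gene induced by TGF-beta, fell from 286 ± 46.1 to 45.6 ± 15.1 (log2 -2.67, adjusted p 2.42e-09 by limma), with 229 to 325 in the young and 29.5 to 68.1 in the old libraries. Junb, an immediate-early gene, fell by 1.14 on the log2 scale with overlap between the ages.

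**Figure D4:**
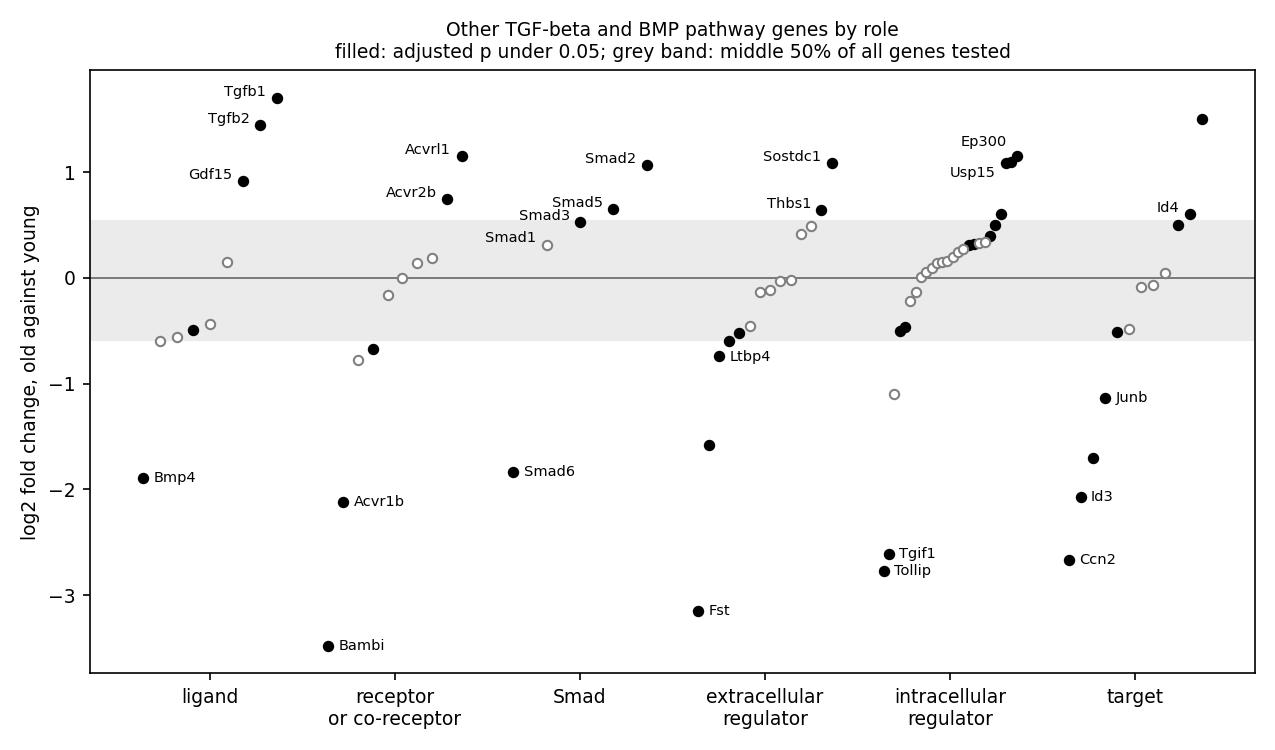
Log2 fold change of the 76 other pathway genes tested, old against young, grouped by role, with filled points for genes called by limma and a grey band for the middle 50% of all genes tested. Bmp4, Bambi, Smad6, Fst, Tollip and Ccn2 have the lowest values of their roles, and Tgfb1 has the highest value of all, at 1.70.

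Whole kidney holds many cell types, so marker lists of other cells are given beside these results. Of 8 endothelial markers, 5 were higher and 0 lower in old kidneys, where 29.2% of all genes were called higher and 30.5% lower. The counts of the lists that follow stand beside the same shares. The summed level of the endothelial markers was 1722 to 1807 normalised counts in young and 2175 to 2448 in old libraries. Acvrl1 moved in this direction, Tgfbr2 and Bmp6 moved in the opposite one, and the co-receptor gene Eng was not called (log2 fold change 0.18). Pecam1 (log2 fold change 0.76), Flt1 (0.63), Tek (0.70), Kdr (0.51) and Ehd3 (0.51) were called, while Cdh5 (0.00), Emcn (-0.12) and Plvap (-0.26) were not. Of 8 fibroblast and mural markers, 2 were higher and 4 lower, with summed levels of 1870 to 2283 in young and 1178 to 1972 in old libraries. The collagen genes Col1a2 (-1.01), Col3a1 (-1.19) and Col1a1 (-0.47) and the pericyte gene Pdgfrb (-0.80) fell, Pdgfra (0.84) and Rgs5 (0.72) rose, and Dcn (-0.03) and Acta2 (0.09) were not called. Of 3 tested markers of lymphocytes and plasma cells, 3 were higher, with summed levels of 253 to 717 and 876 to 2504. Macrophage markers summed to 1175 to 1362 in young and 1373 to 1929 in old libraries, 3 of 8 higher and 1 lower, and adipocyte markers to 2948 to 4566 and 743 to 1935, with 2 of 4 lower and a median log2 fold change of 0.25. Most of the adipocyte sum was Lpl, at a mean of 3424 in young and 1152 in old kidneys, and Adipoq (2.36) and Cidec (2.10) were not called. No marker of these lists that was in the table was at 0 in all libraries. The part of these cells in the results above was not tested. In 37.5% of called genes the young mean was closest to old replicate 2, and without it Acvr1 stood at -2.33 and Bmp6 at -1.23.

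The genes most like the 3 listed genes with the largest moderated t were found by the root mean square difference of their centred log2 profiles over the 9 libraries. For Bmpr1a they were Birc6 (0.08), Macf1 (0.08) and Psmd4 (0.08). For Acvr1 they were Kti12 (0.19), Plscr1 (0.28) and Magef1 (0.30), and for Bmp6 they were Gle1 (0.17), Fam210b (0.17) and Misp3 (0.18). The profile of Bmpr1a was thus matched more closely than that of Acvr1, whose old values rest on few reads.

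**Figure D5:**
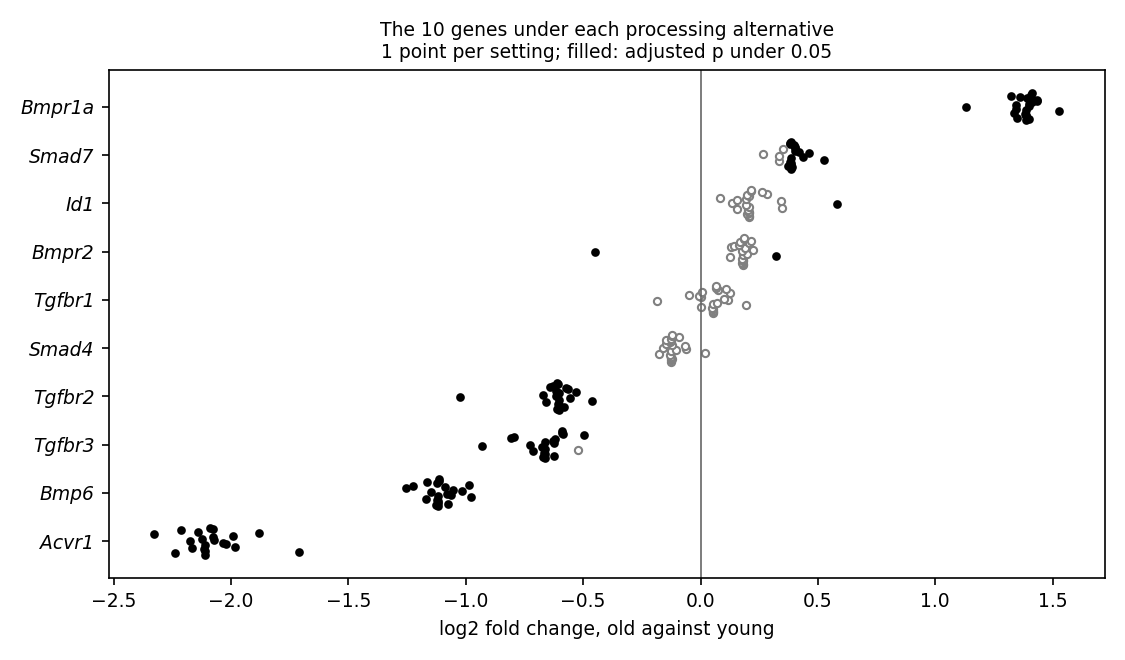
Log2 fold change of the 10 genes, old against young, under the main setting and each alternative, 1 point per setting, filled where the adjusted p-value was under 0.05. Bmpr1a, Tgfbr2, Bmp6 and Acvr1 were called in the same direction at each point, while Bmpr2 was called on both sides of 0.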

How the data were processed

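Kidney RNA of 9 wild-type mice was sequenced from transcript ends with an oligo(dT) kit (labels and study methods name different kit versions). The authors aligned reads to GRCm39 with TopHat2 2.0.10, counted them by strand with HTSeq 0.6.1 on GENCODE vM26 and divided them by DESeq size factors. This deposited signal is count-like, and 100% were whole multiples of 1 read (tolerance 0.001 reads). The authors removed low genes by a rule that is not stated (lowest mean 4.49).

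Old was compared with young without covariates by limma 3.58.1 with a trended variance (R 4.3.3) on log2(normalised count + 1). Genes needed 10 or more normalised counts in 4 or more libraries, and the Benjamini-Hochberg adjustment ran over the 12667 left. Fold changes on this scale understate those of low genes. Steps were tested on simulated data. The 10 genes, the pairs and the pathway and marker lists were chosen with earlier results of these data known. Named besides the 10 were all measured Smads, up to 4 called genes per role with the largest moderated t, 3 genes per profile and the endothelial, fibroblast and mural markers. Id2, Bmp1, Bmp7, Eng and a few other markers were named after their values were seen. Alternatives were other pseudocounts, filters, scalings and variance settings, thinned reads, removal of a transcript length trend within each library and leaving out each library. edgeR 4.0.16 called 7649 and DESeq2 1.42.0 called 7532 genes on the recovered reads. Replicate numbers follow the listing order. Intervals and floors on reads cover counting error only. Gene positions, overlaps and transcript lengths came from GENCODE vM21 on GRCm38, matched by symbol, and no coordinates were converted.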

Additional observations from a re-analysis of the deposited data

Results flagged for a closer look

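Each set of young or old libraries was examined on the log2 scale for an extreme library, using the distance to its closest neighbour divided by the whole range of that age. Of 106 groups, 6 had an extreme library, and chance gives about 5.3 at 1 in 20. The gap share was 0.885 for Smad6 in young replicate 2 (5.71 against 5.88 to 5.90), 0.735 for Sostdc1 in old replicate 4 (10.4 against 9.97 to 10.1), 0.842 for Usp15 in young replicate 4 (5.90 against 6.59 to 6.71) and 0.838 for Ep300 in young replicate 1 (7.37 against 7.66 to 7.71). It was 0.812 for the summed level of collecting duct markers in old replicate 3 (11.7 against 10.2 to 10.5) and 0.993 for that of fibroblast and mural markers in young replicate 4 (11.2 against 10.9 in the other 3). None of the 10 genes and none of the 6 pairs had such a library.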

How the results depend on the processing

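The count of called genes among the 10 was 6 and ran from 4, when genes with means below 100 were dropped (7 of the 10 tested), to 7 with the length trend removed. With a change of at least 1.5-fold the count of 5 became 3 under that filter and 3 with mitochondrial genes left out before scaling. Of the other pathway genes, 41 were called in the main test and 19 under the same filter, which tested 31 of them, while 4101 of 5655 genes overall were called under it. Leaving out each library in turn gave 5 to 6 of the 10 genes, 4 to 5 with a 1.5-fold change, 36 to 44 other pathway genes and 5 to 6 pairs. Signs were reversed for Tgfbr1 with the length trend removed (-0.19) and when single libraries were left out (range -0.05 to 0.12, -0.01 without young replicate 4 and -0.049 without old replicate 1), for Bmpr2 with the length trend removed (-0.45) and for Smad4 with mitochondrial genes left out before scaling (0.017). In Tgfbr1 and Smad4 neither value was called, and the cause was not tested. Pseudocounts of 0.1 and 5, no filter, TMM factors, robust eBayes, edgeR and DESeq2 changed no call by adjusted p-value among the 10 genes, though with a pseudocount of 5 Tgfbr2 was under 1.5-fold (-0.58) and 4 genes passed both limits. Young and old libraries came from different mice and the labels describe no pairing of them, so no paired analysis was made. Depth limits Acvr1, Bambi and Fst, which had few reads in old libraries.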
